A study of Mus musculus with 7 samples.

Results

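Mouse M1 macrophages were profiled here by their microRNAs (miRNAs), the short RNAs that bind partly matching messenger RNAs and lower their output. The 3 macrophage samples were taken by their sample titles from a series of 7, the other 4 being aortas, which are not analysed here. All 517 mouse miRNA assays on the panel were used, and 7 further assays for control RNAs served as a check. Marrow of female C57BL/6 mice aged 6 to 8 weeks was grown for 7 days in medium with 10% serum and 10% L929-conditioned medium, which supplies the growth factor for macrophages. Flow cytometry for F4/80 and CD11b had served as a check of the cell type. Stimulation was with lipopolysaccharide (100 ng/ml, 14 hours) together with interferon-γ (10 ng/ml, 6 hours), which drives macrophages to the inflammatory M1 state. The labels call the samples biological replicates and do not say how many mice each came from. All 3 had received both agents, and no unstimulated or alternatively activated macrophages were measured, so no value below is a response to treatment. With 1 group there was no comparison to test, and the values are descriptions.

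A miRNA acts mainly through its seed, bases 2 to 8 from the 5′ end, so miRNAs with a common seed share many targets. Macrophages carry miRNAs of all blood cells, such as miR-142, miRNAs of the myeloid line, such as miR-223, and miRNAs that rise when Toll-like receptors sense bacterial products, such as miR-155 and miR-146a. miR-155 comes from the Bic transcript and lowers inhibitors of cytokine signalling such as Socs1 and Ship1. miR-146a lowers Irak1 and Traf6, which relay the Toll-like receptor signal.

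The RefSeq sequences of the marker miRNAs and of the earliest seed groups are shown because the profile turns on them, with the seed in capitals.
miR-155: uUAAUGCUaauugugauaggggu
miR-223: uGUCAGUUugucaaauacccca
miR-142-3p: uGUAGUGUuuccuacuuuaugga
miR-142-5p: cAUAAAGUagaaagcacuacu
miR-146a: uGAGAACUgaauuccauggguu
miR-146b: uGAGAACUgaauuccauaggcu
miR-21: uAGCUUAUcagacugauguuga
miR-222: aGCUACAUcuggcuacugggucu
miR-221: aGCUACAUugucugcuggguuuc
miR-24: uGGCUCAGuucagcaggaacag
miR-19b: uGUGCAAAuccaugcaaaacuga
miR-20a: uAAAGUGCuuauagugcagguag
miR-17: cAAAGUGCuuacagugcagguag
miR-106a: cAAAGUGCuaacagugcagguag
let-7e: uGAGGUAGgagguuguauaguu
let-7a: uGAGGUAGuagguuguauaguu

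In the mouse genome build GRCm38.p6, miR-155 lies at chr16:84714143-84714165, miR-223 at chrX:96242884-96242905 and miR-142-3p at chr11:87756903-87756925. miR-146a lies at chr11:43374435-43374456 and miR-146b at chr19:46342790-46342811. miR-222 and miR-221 lie next to each other, at chrX:19146901-19146923 and chrX:19146307-19146329. The miR-142 strands come from opposite arms of 1 hairpin and have different seeds. Over their length, miR-17 and miR-106a differ at 1 base, let-7a and let-7e at 1 base, and miR-146a and miR-146b at 2 bases. One assay may also read a near-identical miRNA, so the separate values of such miRNAs are uncertain.

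The readout was the threshold cycle (Ct) of a PCR, the cycle number where the fluorescence of a well passes a set line. An earlier Ct stands for more product. Assays differ in how well they amplify, and those differences were not measured. Orders, cycle gaps, summed levels and shares across miRNAs therefore hold for these assays as run and are not measured ratios of molecules. Detection means a Ct no later than 35, and wells that never crossed are listed at Ct 40.

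Macrophage replicate 3 stood apart by its later signal. Over the 313 miRNAs detected in all 3 samples, the mean Ct was 25.6 in replicate 1, 25.7 in replicate 2 and 27.95 in replicate 3. The reference RNA snoRNA202 showed the same order at Ct 16.6, 16.8 and 18.9. For the spread between samples, a level was therefore used, the sample's mean Ct over these 313 miRNAs minus the miRNA's Ct. It counts cycles above or below the sample's average miRNA. In such bulk RNA, fewer cells with a miRNA and less of it per cell cannot be told apart.

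The macrophages held a detectable amount of most miRNAs on the panel. Of 517 miRNAs, 359 were detected in replicate 1, 366 in replicate 2 and 326 in replicate 3, a mean of 350.3 ± 21.4 (SD, n = 3). All 3 samples detected 313, which is 60.5%. A further 32 were detected in 2 samples and 48 in 1 sample, while 124 were detected in none and 110 never crossed in any sample. Replicate 3 alone missed 26 of the 32 miRNAs detected in 2 samples, against 4 for replicate 1 and 2 for replicate 2.

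Few wells lay near the limit. Between Ct 34 and 35 there were 3, 6 and 6 wells in replicates 1, 2 and 3, and between Ct 35 and 36 there were 4, 7 and 9. By mean Ct, the 3 miRNAs just inside the limit were miR-465b-5p at 34.7, miR-135a at 34.9 and miR-290-5p at 34.95, and the 3 just outside were miR-196a* at 35.001, miR-466h at 35.1 and miR-220 at 35.1. Each of these 6 means included at least 1 uncrossed well. A plant miRNA assay with no mouse counterpart was listed at Ct 40 in replicates 1 and 2 and crossed at Ct 31.4 in replicate 3. In replicate 3, 55 of the 326 detected miRNAs were later than that well. With the limit placed at that Ct in every sample, 259 miRNAs were detected in all 3.

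Some miRNAs were early in 1 sample and absent from the others. Of the 48 miRNAs detected in 1 sample, 39 were at Ct 40 in the other samples, and 19 had crossed before Ct 30. The earliest, named like the next ones after their values were seen, was miR-881, which crossed at Ct 14.7 in replicate 2 and was at Ct 40 in replicates 1 and 3. That well was earlier than every other miRNA of replicate 2. miR-691 crossed at Ct 20.9 in replicate 2 only, and miR-615-5p at Ct 21.6 in replicate 1 only. miR-711 crossed at Ct 21.2 and 21.0 in replicates 1 and 2 and not in replicate 3. Such lone early wells were not repeated on the panel, as no mouse miRNA had a second well.

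The first ranks were held by miR-222, miR-24, miR-124, miR-223, miR-709 and miR-146a. miR-222, which lowers the cell cycle inhibitor p27, had the earliest mean Ct, at 16.9 ± 2.14 (SD, n = 3). It crossed at Ct 15.5, 15.9 and 19.4 in replicates 1, 2 and 3. miR-24, cut from the same transcripts as miR-23 and miR-27, followed at 15.97, 16.25 and 18.57. The myeloid miR-223 was ranked 4, at 16.79, 15.99 and 19.01. In all 3 samples miR-222, miR-24 and miR-223 were among the 10 earliest, as were miR-19b, miR-21 and miR-709.

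Neighbours in this order could not be separated. In none of the first 12 steps of the order was the earlier miRNA the earlier one in all 3 samples. miR-24 was later than miR-222 by 0.51 and 0.33 cycles in replicates 1 and 2 and earlier by 0.81 cycles in replicate 3. miR-709 was later than miR-223 by 0.36 ± 0.49 cycles (SD, n = 3). miR-191 was later than miR-484 by 0.06 ± 0.13 cycles on average. A rank thus gives a place among the early miRNAs rather than an exact position.

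**Figure D1:**
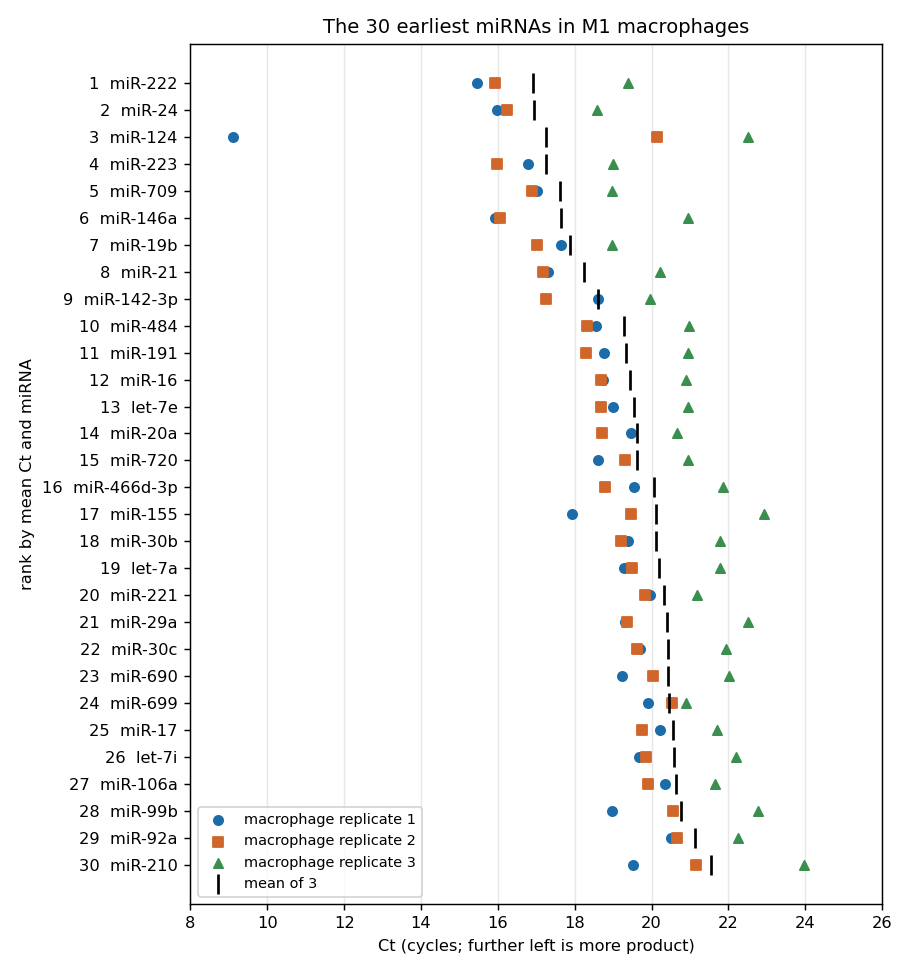
Ct in cycles (x axis) of the 30 miRNAs with the earliest mean Ct, ordered by rank (y axis), with a symbol for each macrophage sample and a bar at the mean of the 3. Replicate 3 lies to the right for every miRNA shown, and miR-124 has 1 well far to the left, at Ct 9.1.

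The early miRNAs were much the same in each sample. Taken within each sample, the 30 earliest of the 313 shared 27 members over all 3 samples. Ranks 12 to 17 of the mean order were miR-16, let-7e, miR-20a, miR-720, miR-466d-3p and miR-155. From rank 18 to 30 came miR-30b, let-7a, miR-221, miR-29a, miR-30c, miR-690, miR-699, miR-17, let-7i, miR-106a, miR-99b, miR-92a and miR-210, with mean Ct from 20.1 to 21.5. miR-720 has since been described as a piece of a transfer RNA. miR-210, a miRNA induced by low oxygen, was at Ct 19.52, 21.16 and 23.96 and ended the 30. miR-15b came next, at a mean Ct of 21.6 against 21.5.

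The place of miR-124 rested on 1 well. miR-124, known from neurons and from resting microglia, crossed at Ct 9.1 in replicate 1, at 20.1 in replicate 2 and at 22.5 in replicate 3. Its ranks in the samples, among the 313 miRNAs detected in all 3, were 1, 27 and 26. The well of replicate 1 was the earliest of the macrophage panel and was earlier than the abundant small nuclear RNA MammU6 in that sample, at Ct 14.7. In replicates 2 and 3 the level of miR-124 was 5.52 and 5.45, close to each other.

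The earliest miRNAs held most of the summed signal, taken as 2 to the power of minus Ct, which assumes that each cycle doubles the product. In replicate 1, miR-124 alone held 92.9% of this sum, and in replicate 2 miR-881 held 20.8%. Without miR-124 and miR-881, the 10 earliest miRNAs held 64.6%, 66.7% and 59.3% in replicates 1, 2 and 3, and the 30 earliest held 85.4%, 85.6% and 85.6%. On that basis miR-222 held 11.3 ± 4.65% (SD, n = 3), miR-24 held 10.6 ± 1.29%, miR-223 held 8.58 ± 2.30% and miR-146a held 8.03 ± 5.08%. The share of miR-155 was 1.46 ± 1.22%. These shares cover the panel only and move with assay efficiency.

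Most miRNAs lay far below the leaders. From the first to the last of the 313, mean Ct ran from 16.9 to 33.4, with a median of 26.8. The mean was before Ct 20 for 15 miRNAs, from Ct 20 to 25 for 91, from Ct 25 to 30 for 154 and later for 53.

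The cell identity markers were among the early miRNAs. All 3 markers fixed for the label, miR-223, miR-142-3p and miR-155, were detected in all 3 samples, at ranks 4, 9 and 17. Of all 517 miRNAs, 60.5% were detected in all 3 samples. miR-142-3p, a miRNA of all blood cells, was at Ct 18.61, 17.26 and 19.96, and its level was 7.80 ± 0.71 (SD, n = 3). The level of miR-223 was 9.15 ± 0.46. The markers did not go against the label of a macrophage, while M1 polarization itself cannot be read from 1 stimulated group.

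Other members of the identity list were spread over the order. Of its 8 measured members, 7 were detected in all 3 samples, against 60.5% of all 517 miRNAs, and 3 were among the 30 earliest. miR-16, found in nearly all cells, was at rank 12 and miR-15a, from the same cluster, at rank 69. miR-322, of the same seed family, was at rank 104, at Ct 24.78, 24.18 and 25.96. miR-142-5p, the other strand of the miR-142 hairpin, was at rank 123. miR-424, also listed, was not analysed here.

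miR-342, from an intron of the blood cell gene Evl, differed between the samples. miR-342-3p was at Ct 19.9, 19.9 and 25.2, and its level in replicate 3, at 2.71, was lower than the 5.68 and 5.79 of replicates 1 and 2. miR-342-5p, from the other arm, was at Ct 24.7, 24.5 and 35.1, so it was just past the limit in replicate 3. Both strands were therefore low in the same sample, beyond that sample's later average.

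**Figure D2:**
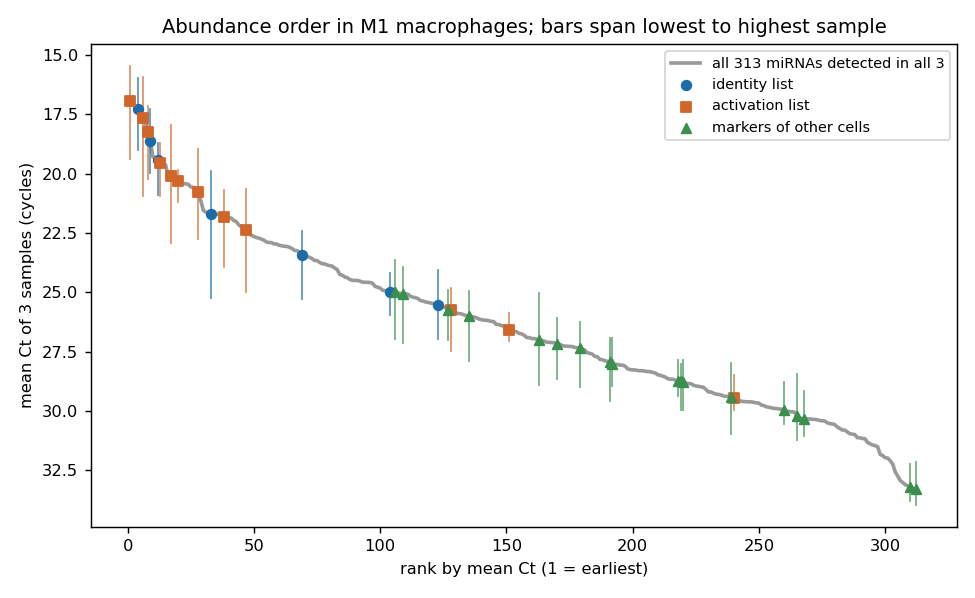
Mean Ct in cycles (y axis, early at the top) against rank (x axis) for the 313 miRNAs detected in all 3 macrophage samples, with members of the identity list, the activation list and the markers of other cells as coloured symbols and bars from the earliest to the latest sample. Most identity and activation miRNAs lie within the first 50 ranks, and the first marker of another cell type is at rank 106.

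Most measured miRNAs of the activation list, which respond to inflammatory activation, were early. Of 13 measured activation miRNAs, 12 were detected in all 3 samples and 7 were among the 30 earliest. Of all 517 miRNAs, 60.5% were detected in all 3 samples and 30 make up the earliest set. The summed level of the list, on a log2 scale under doubling, was 11.46, 11.19 and 10.04 in replicates 1, 2 and 3. The median rank of its detected members was 24, against 33 for the identity list and 157 for all 313. The list holds miRNAs that many cell types express, such as let-7e and miR-221, so an early rank is not by itself a sign of activation. This list and the others were chosen with earlier results of these data known. Their counts and ranks are therefore descriptions and no test.

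miR-155 was early but uneven. It crossed at Ct 17.9, 19.5 and 22.9 in replicates 1, 2 and 3, with levels of 7.68, 6.18 and 5.03. Its rank among the 313 was 9 in replicate 1, 18 in replicate 2 and 30 in replicate 3. Over the 3 samples the level was 6.30 ± 1.33 (SD, n = 3).

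miR-146a was among the earliest in replicates 1 and 2. It crossed at Ct 15.94, 16.05 and 20.96, with levels of 9.69, 9.61 and 6.99, so replicate 3 was lower by more than 2 cycles after scaling. miR-146b, with the same seed, was at Ct 20.7, 20.8 and 23.9 and at rank 38. miR-146a was earlier than miR-146b in all 3 samples, by 4.18 ± 1.03 cycles (SD, n = 3).

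miR-21, which lowers the translation inhibitor Pdcd4, was steadier. It was at Ct 17.3, 17.2 and 20.2 and at rank 7 of the 313 in each sample, with a level of 8.18 ± 0.40. miR-222 and miR-221 come from 1 transcript and share a seed, and miR-222 was earlier in all 3 samples, with Ct differences to miR-221 of -4.50, -3.90 and -1.81 cycles.

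The cluster of miR-99b, let-7e and miR-125a on chromosome 17 was detected in all 3 samples, as were 60.5% of all 517 miRNAs. let-7e was at rank 13 with a level of 6.87 ± 0.21 (SD, n = 3). miR-99b was at rank 28 with levels of 6.64, 5.09 and 5.18, and miR-125a-5p was at rank 47 with levels of 4.96, 4.15 and 2.98. miR-99b was earlier than miR-125a-5p in all 3 samples, by 1.61 ± 0.63 cycles.

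Other activation miRNAs were later. miR-147, which rises in mouse macrophages after lipopolysaccharide and dampens cytokine output, was at Ct 27.1, 25.9 and 26.8 and at rank 151. In contrast to miR-155 and miR-146a, its level was highest in replicate 3, at 1.18 against -1.44 and -0.21. miR-132, a target of the transcription factor Creb, was at rank 128 with a level of 0.65 ± 0.17. miR-9, which targets NFKB1 in human monocytes, was at rank 240, at Ct 29.97, 28.50 and 29.88. miR-187, induced by interleukin-10 in human monocytes, was at Ct 40 in all 3 samples. miR-212 was not analysed here.

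**Figure D3:**
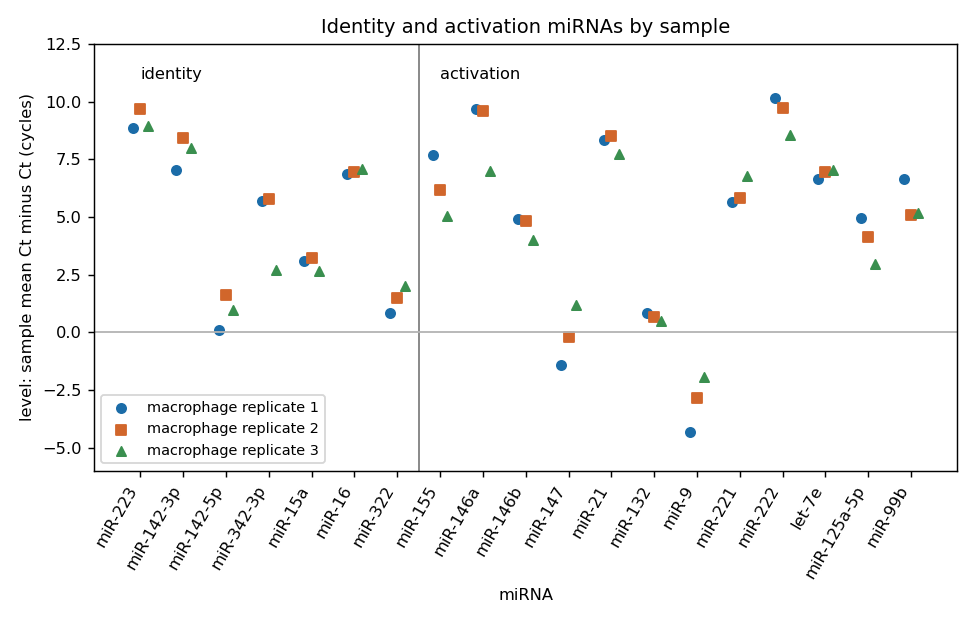
Level of each identity and activation miRNA detected in all 3 samples (y axis, sample mean Ct minus Ct, in cycles), with a symbol for each macrophage sample. miR-342-3p, miR-155 and miR-146a are lowest in replicate 3, while miR-147 and miR-9 are highest there.

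The miRNAs tied to alternative activation or to its resting state were also present. Of 5 measured, 4 were detected in all 3 samples, against 60.5% of all 517 miRNAs. let-7c was at rank 45 and miR-125b-5p, which falls after lipopolysaccharide in mouse macrophages, at rank 43, with Ct of 19.95, 21.66 and 24.44. miR-378, which rises with interleukin-4, was at rank 115 with a level of 1.15 ± 0.19 (SD, n = 3). miR-511, from an intron of the mannose receptor gene Mrc1, was at Ct 27.8 and 27.4 in replicates 1 and 2 and never crossed in replicate 3. The fifth, miR-124, is described above.

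Markers of other cells lay later than most identity and activation miRNAs but were detected no less often than the panel as a whole. Of 25 measured markers on 8 lists, 18 (72.0%) were detected in all 3 samples, against 60.5% of all 517 miRNAs, while 2 were detected in some and 5 in none. Their first rank was 106 and their median rank 205, against 157 for all 313, at a median mean Ct of 28.4. miR-133a, miR-133b, miR-205, miR-122 and miR-486, which mark muscle, epithelium, liver and red blood cells, were not detected in any sample. miR-144 was not analysed here. The part of any other cell in the values was not tested.

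The smooth muscle miRNAs were late. miR-143 was at Ct 29.2, 30.8 and 31.1 and miR-145, from the same cluster, at 27.85, 29.01 and 29.39. The summed level of the detected smooth muscle members was -1.73, -2.97 and -1.04 in replicates 1, 2 and 3. The muscle miRNA miR-1 was earlier, at Ct 27.07, 25.04 and 28.90, and miR-206 was at 32.2, 33.8 and 33.6.

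The endothelial and mesenchymal miRNAs were in the same range. miR-126-3p was at Ct 28.5, 27.8 and 29.9 and miR-126-5p at 31.001, 28.43 and 31.24. miR-214 was at rank 191 and miR-199a-3p at rank 219. miR-199a-5p and miR-10b passed the limit in replicates 1 and 2 only, with miR-10b at Ct 33.9 and 29.4. Summed levels were from -2.67 to -1.44 for the endothelial list and from -1.09 to -0.74 for the detected mesenchymal members.

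The lymphocyte list held 1 miRNA and the red blood cell list 1 that was detected. Lists for granulocytes or platelets, which share miR-223 and miR-142, were not used. miR-150, abundant in mature lymphocytes, was at Ct 26.9, 28.2 and 28.9 and at rank 192. miR-451, abundant in red blood cells, was at 33.81, 33.96 and 32.16 and at rank 312 of 313. The liver and gut miRNAs miR-192 and miR-194 were at ranks 170 and 179.

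The epithelial miR-200 family was the earliest of these markers. miR-200c was at Ct 24.37, 23.64 and 26.97 and at rank 106, and miR-200a was at 24.1, 23.9 and 27.2 and at rank 109. miR-429 and miR-200b were at ranks 127 and 135. miR-141, cut from the same cluster as miR-200c, was later, at 30.6, 28.8 and 30.5, and miR-203 was at 29.26, 27.98 and 30.99. The summed level of the list was 3.04, 3.43 and 2.79 in replicates 1, 2 and 3, while miR-205 was at Ct 40 throughout.

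Most seeds found among the earliest miRNAs occurred there once. Of the 30 earliest miRNAs, 24 were matched to RefSeq sequences, with 19 seeds, and 16 began with U. Of these seeds, 3 were shared within the 30, by 8 miRNAs. Unmatched miRNAs, miR-30b among them, were not compared. Some seeds that occurred once among the 30 were shared with later miRNAs, as that of miR-146a with miR-146b at rank 38. The seed of let-7 and that of miR-17 each occurred 3 times, and miR-222 and miR-221 had the same seed.

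The let-7 family, whose maturation Lin28 blocks in immature cells, was complete. All 9 measured members were detected in all 3 samples, against 60.5% of all 517 miRNAs, from rank 13 to rank 66. let-7e led, followed by let-7a, let-7i and miR-98. The median SD of the members' levels was 0.25 cycles, and the summed level was 8.53, 8.50 and 8.50 in replicates 1, 2 and 3. An assay of 1 member may also read another, which was not tested.

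The miR-17~92 cluster, which promotes growth and survival of blood cells, was also complete. miR-19b led at rank 7, at Ct 17.65, 17.03 and 18.97, followed by miR-20a at rank 14, miR-17 at rank 25 and miR-92a at rank 29. miR-19b and miR-92a are also encoded in the miR-106a cluster on chromosome X, so their values cannot be assigned to 1 cluster. All 6 members had their highest level in replicate 3, against 39.0% of the 313 miRNAs. The summed level, with miR-19b and miR-92a included, was 8.67, 9.29 and 9.66. Of the related clusters, all 3 measured members of miR-106b~25 were detected, led by miR-106b at rank 54. In the miR-106a cluster it was 3 of 4 members, not counting miR-19b and miR-92a, with miR-18b at Ct 40 throughout. The counts of these clusters and of miR-17~92 stand beside the 60.5% of all 517 miRNAs detected in all 3 samples. The miR-106a assay at rank 27 may read miR-17.

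The clusters of miR-23, miR-27 and miR-24 were detected in full, with miR-24 at rank 2, miR-27b at 39, miR-23a at 50 and miR-27a at 51. This count and the next ones stand beside the 60.5% of all 517 miRNAs detected in all 3 samples. All 5 members of the miR-30 family were detected, with miR-30b at rank 18, miR-30c at 22 and miR-30a at 46. All 3 miR-29 members, known for lowering collagens, were detected, with miR-29a at rank 21 and miR-29b at 117. In the miR-15 and miR-16 family all 7 members were detected, and Ct of miR-16 minus that of miR-15b was -2.19 ± 0.07 cycles (SD, n = 3). miR-181a was at rank 59 and miR-181c at 221. In the miR-130 and miR-301 family miR-301b was first, at rank 57, and in the miR-148 family miR-152 was first, at rank 122.

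The count of detected assays is given by genome cluster, beside the 60.5% of all 517 assays detected in all 3 samples. Of the 517 assays, 454 were matched to hairpins of the RefSeq table, and hairpins within 10000 bases of each other were taken as a cluster. In the miR-17~92 cluster (chr14:115043671-115044506), 10 of 11 assays, star strands included, were detected in all 3 samples. Among them, miR-19b and miR-92a are also encoded in the miR-106a cluster. In the miR-500 to miR-532 cluster (chrX:7237683-7248497) it was 7 of 8, and in the miR-322 and miR-503 cluster (chrX:53047997-53054349) 7 of 9.

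Clusters of the embryo, the germ line and the imprinted Dlk1-Dio3 region had a smaller share detected in all 3 samples than the 60.5% of all 517 assays. In the miR-379 cluster of that region (chr12:109709060-109747960) 10 of 43 assays were detected in all 3 samples and 25 in none, with the earliest, miR-494, at a mean Ct of 26.7. In its neighbour (chr12:109563692-109595397) it was 3 of 19, with 12 detected in none. The miR-743 to miR-465 cluster (chrX:66776757-66839125), known from testis, had 4 of 19 detected in all 3 and 9 in none. In the miR-290 cluster of embryonic stem cells (chr7:3218626-3220841) it was 1 of 11, with 5 detected in none. Of its members, miR-293 was at Ct 24.2 and 25.6 in replicates 2 and 3 only. miR-291a-5p was at Ct 25.6 and 25.2 in replicates 1 and 2 only. In the miR-302 cluster (chr3:127545228-127545807) it was 0 of 8, with 5 detected in none.

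The replicates had similar profiles. Across the 313 miRNAs, which are not independent of each other and share the depth of their sample, Pearson's r of Ct was 0.943 between replicates 1 and 2, 0.917 between 1 and 3 and 0.924 between 2 and 3. The median SD of a miRNA's level over the 3 samples was 0.59 cycles. It was under 0.5 cycles for 132 miRNAs (42.2%) and over 1 cycle for 87 (27.8%). Repeated wells of 5 control RNAs differed by a median of 0.46 cycles (15 pairs), from 0.048 to 0.935. Among the reference RNAs the SD of the level was 0.07 for snoRNA429, 0.09 for snoRNA135, 0.11 for snoRNA202, 0.26 for U87, 0.41 for MammU6 and 0.84 for Y1.

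Later miRNAs were more variable. In the latest of 3 equal groups by mean Ct (28.4 to 33.4) the median SD was 0.83 cycles, against 0.48 and 0.47 in the earliest and middle groups. The smallest SDs were those of miR-103, at 0.04, and miR-30c, at 0.05, followed by miR-503*, miR-23b and miR-181a, each at 0.08. miR-103, a miRNA of lipid and insulin metabolism, had levels of 2.52, 2.58 and 2.497. These 5 lay from rank 22 to rank 237. They were picked as the smallest of 313 SDs, each from 3 values. Repeated wells of control RNAs differed by a median of 0.46 cycles. Whether these 5 are steadier than other miRNAs was not tested.

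In the most variable miRNAs 1 sample usually stood apart. Behind miR-124, with an SD of 6.37, came miR-483*, from an intron of Igf2, which crossed at Ct 24.2 and 23.3 in replicates 1 and 2 and at 31.8 in replicate 3. miR-376b was at Ct 27.6, 25.2 and 33.4. All were latest in replicate 3. miR-34c, a target of p53, was at 29.47, 33.99 and 30.84, late in replicate 2. miR-149 was at 25.60, 24.99 and 23.15, and was the only one of these 5 with its earliest Ct in replicate 3, where its level was 4.803 against 0.02 and 0.67.

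**Figure D4:**
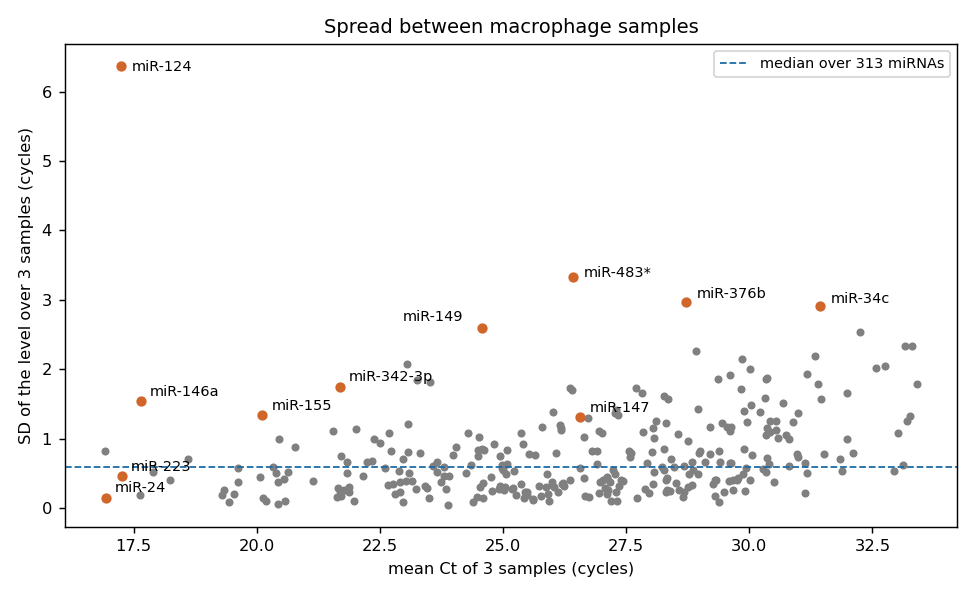
SD of the level over the 3 macrophage samples (y axis, cycles) against mean Ct (x axis, cycles) for the 313 miRNAs detected in all 3, with the median of 0.59 as a dashed line. miR-124 lies alone at 6.37, and miR-146a, miR-155 and miR-342-3p are among the 14 of the earliest 104 with an SD over 1 cycle.

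Replicate 3 was the lowest of the 3 for 39.6% of the 313 miRNAs and the highest for 39.0%, so it lay at an end of the range more often than replicates 1 and 2. On the activation list it was lowest for 7 of 12 members and on the identity list for 2 of 7. Levels in replicate 3 differed from the mean of replicates 1 and 2 by -3.03 for miR-342-3p, -2.66 for miR-146a, -1.91 for miR-155 and 2.00 for miR-147. What moves with this sample beside its later Ct was not tested.

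The strands of a hairpin were unequal in most cases. Star strands, by the naming of the assays the less abundant strand, were detected in all 3 samples for 67 of 110 assays, against 246 of 407 other assays. Both strands of 55 hairpins were detected in all 3 samples. The main strand was earlier in all 3 samples for 45 of these and the star strand for 8, while 2 were mixed. The star strand was later by a median of 4.08 cycles. The SD of the difference had a median of 0.73 cycles.

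The widest gaps among the 55 hairpins were those of early main strands. miR-191* was later than miR-191 by 14.0, 14.7 and 12.4 cycles, miR-21* than miR-21 by 10.4, 11.6 and 11.4, and let-7i* than let-7i by 10.7, 10.3 and 10.7. Among hairpins whose assays are named by arm, Ct of miR-142-3p minus that of miR-142-5p was -6.94, -6.79 and -7.02 cycles, with an SD of 0.12 (n = 3).

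In the 8 hairpins with an earlier star strand, the name of the strand and its order disagreed. Ct of miR-467a* minus that of miR-467a was -3.24, -4.93 and -4.04 cycles, and at rank 62 it was the first star strand of the order. miR-141* was at Ct 26.07, 26.03 and 26.42 against 30.56, 28.77 and 30.54 for miR-141. For miR-34c*, miR-330* and miR-877*, the mean difference to the partner was -3.72, -3.24 and -2.39 cycles (SD 3.05, 1.03 and 0.92, n = 3). Since the strands have separate assays, a gap of this size can hold a difference in amplification.

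**Figure D5:**
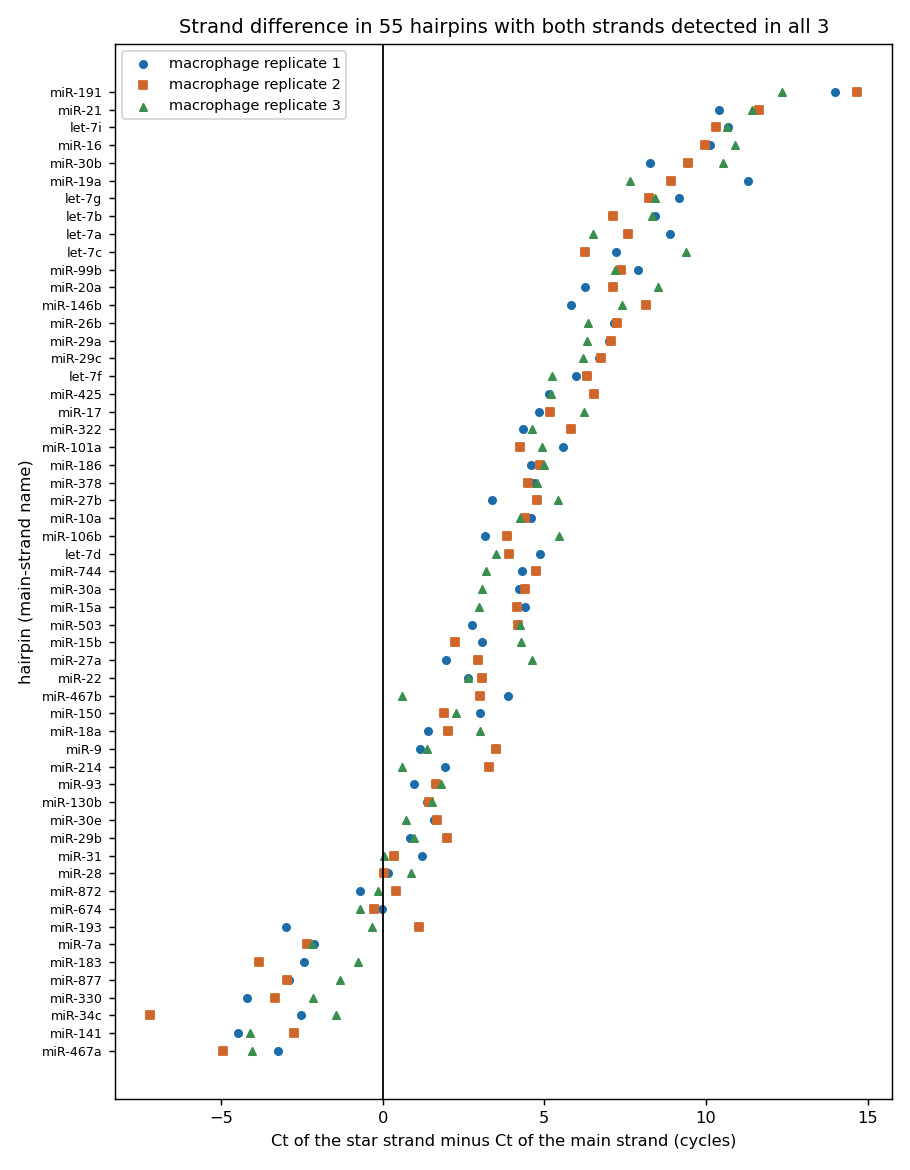
Ct of the star strand minus Ct of the main strand (x axis, cycles) for the 55 hairpins with both strands detected in all 3 macrophage samples (y axis), with a symbol for each sample. For 45 hairpins all symbols lie right of 0, where the main strand is earlier, and for 8 they lie left of it.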

How the data were processed

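Per the labels' protocols, total RNA came from a mirVana kit. Instrument, threshold setting and preamplification were not given in the labels read. The deposited raw table holds Ct values, 1 well per mouse miRNA and 2 wells for 5 of 7 control RNAs, whose wells were averaged. The authors' deposited second table, on a log2 scale under doubling, equalled each Ct minus 1 constant per sample (15.6, 15.8 and 18.3 in macrophage replicates 1, 2 and 3), the mean over MammU6 and snoRNA202.

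Detection, ranks of mean Ct, levels, SDs, strand differences and shares were computed with Python 3.11.15, pandas 2.3.3 and numpy 2.4.6 and plotted with matplotlib 3.10.9. The SD and rank computations were tested on simulated data. No model was fitted and no p-value computed. The 3 samples limit the precision.

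The members and lists were chosen with earlier results of these data known. The rule for names took the 30 earliest miRNAs, all measured members of the identity, activation, alternative activation and other-cell lists, the 5 largest and 5 smallest SDs, up to 4 members of each other list, the 3 miRNAs on each side of the limit and up to 5 hairpins with an earlier star strand. miRNAs named for neighbouring ranks, seeds, hairpins or clusters were chosen after their values were seen. Alternatives covered the limit, scaling, averaging, efficiency and samples left out.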

Additional observations from a re-analysis of the deposited data

How the results depend on the processing

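The count of 313 miRNAs detected in all 3 samples was 273 at a limit of Ct 32 and 321 at Ct 38. It was 259 at the Ct of the plant assay, a limit chosen after seeing the data. With 1 sample left out it was from 315 to 339, and it could not fall, as fewer samples had to detect each miRNA. The 30 earliest kept 29 or 30 members with 1 sample left out, and 29 by median Ct. Ranks were recomputed for 7 miRNAs (miR-155, miR-223, miR-142-3p, miR-142-5p, miR-146a, miR-21 and miR-147). The deposited values differ from Ct by 1 constant per sample, which cannot change the order of mean Ct. The same ranks with those values are therefore no check. miR-155 was at rank 26 without replicate 1 and at rank 12 without replicate 3, miR-146a at rank 2 by median Ct, and miR-223 at rank 2 without replicate 1. The median SD of 0.59 cycles was 1.45 without scaling and 0.715 with MammU6. With 1 sample left out it was from 0.398 to 0.558, but each SD then rests on 2 values and is not comparable. With all 3 samples it was 0.615 scaled to snoRNA135 and snoRNA202 and 0.632 with the deposited values. The 10 earliest miRNAs held 75.9% of the summed signal on average, 67.4% at a factor of 1.8 per cycle, 65.3% without miR-124 and 63.5% without miR-124 and miR-881, both chosen after seeing the data, and from 65.2% to 84.5% with 1 sample left out. Apart from what leaving out a sample does to the count and the SD, the cause of these shifts was not tested. Using the earlier of repeated wells was not run, as mouse miRNAs had 1 well each. No paired analysis was possible because the values come from 1 group and no test.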

Other observations

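Ct values of the macrophage wells were not spread evenly over the decimals. Of the wells that crossed, 71 of 378 (18.8%) in replicate 1, 59 of 389 (15.2%) in replicate 2 and 90 of 351 (25.6%) in replicate 3 had decimals of 0.9 or more, where an even spread would give 10%. Decimals from 0.4 to 0.5 held 6.88%, 10.5% and 6.55%. Values of miR-484, miR-191, miR-720 and miR-146a in replicate 3, at Ct 20.965, 20.958, 20.939 and 20.961, are examples. Differences of well under 1 cycle between miRNAs of that sample are therefore read with caution here, and the reason was not tested.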
